A study of Mus musculus with 72 samples.

Results

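The 10 circadian clock genes described here were Arntl and Clock, the period genes Per1, Per2 and Per3, the cryptochromes Cry1 and Cry2, Nr1d1, Bhlhe40 and Dbp. They were found by symbol, each matched 1 Ensembl gene, and together they made 10 of the 55401 genes in the count table. All 10 passed the filter on low counts in both hippocampal regions, and the lowest count of any of them in any library was 230, for Cry1. Messenger RNA had been sequenced in bulk from the dorsal part of the hippocampus (DH) or its ventral part (VH), in male mice labelled as C57BL/6J (6J) or C57BL/6NJ (6NJ), 2 closely related substrains of an inbred strain. Mice were taken from the home cage, or 30 min after presentation of a cue alone, or 30 min after fear conditioning, in which the cue came with a foot shock (shock and cue). The 2 regions, 2 strain labels and 3 conditions gave 12 groups of 6 libraries, 72 in all. The labels give no mutation, drug, age or time of day for any group, and no group was handled without a cue, so that handling and cue cannot be told apart in a comparison with the home cage. Whether the groups were collected at the same time of day is not known. For clock genes, a difference in collection time therefore cannot be told apart from a response to the condition.

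The molecular clock is a transcriptional feedback loop. ARNTL (also called BMAL1) and CLOCK pair up and bind E-box sequences near Per, Cry, Nr1d1 and Dbp, and the PER and CRY proteins then return to the nucleus and hold the pair back. NR1D1 (REV-ERB alpha) represses Arntl, BHLHE40 (DEC1) competes for E-boxes, and DBP carries the rhythm to output genes through D-box sequences. Per1 is also known as an immediate early gene that responds to neuronal activity through cAMP response elements (CRE), and to glucocorticoids. Clock genes run in the hippocampus, where their loss alters memory in mice.

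Library totals were 30330382 to 56258370 gene counts, and values below are CPM, read counts relative to library size after TMM scaling. Library names hold codes like 31A, and all 36 codes are found in both regions. Each group holds 2 code numbers of 3 codes each, and each number belongs to 1 strain label and 1 condition. The labels do not say whether a code is 1 mouse, so the p-values here reflect no more than the variation among the sequenced libraries, part of which may be technical. Nnt, which 6J mice are known to carry with a deletion, had (at the higher of 2 overlapping gene models) 34.2 to 44.3 CPM in the libraries labelled 6J and 18.3 to 22.9 in those labelled 6NJ, and Gabra2, known to be lower in 6J, had 221 to 328 against 91.4 to 158. Both went against the labels, so strain directions below are those of libraries labelled 6J and 6NJ. Lcn2, a gene of the acute phase response, was above 2 CPM in both regions of 6 codes, 4 of the 6 in the labelled 6J cue groups and 2 of the 6 in the labelled 6J home cage groups. Where leaving out these 6 codes, which leaves 2 libraries in each labelled 6J cue group, ended a call on a member, the value without them is given. The 4 neuronal markers were all above 0 in every group, with a summed level of 1758 to 2017 CPM after the cue in DH.

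Promoter windows from RefSeq on GRCm38.p6 (250 bases before to 50 after an annotated start, 300 in all) were at hand for 8 of the 10 genes. The windows of Per1, Cry1, Nr1d1 and Dbp are shown as examples of genes that passed a comparison with the home cage. Per2 and Bhlhe40, which also passed some of these comparisons, had no window. Capitals mark matches, on either strand, to the E-box CACGTG, its variant CACGTT, the short CRE core TGACG, the D-box forms TTATGTAA and TTATGCAA, and the nuclear receptor core AGGTCA. The full CRE TGACGTCA, which contains the short core, and the glucocorticoid receptor core TGTTCT were searched too.
Per1, upstream start, chr11:69098699-69098998, plus strand: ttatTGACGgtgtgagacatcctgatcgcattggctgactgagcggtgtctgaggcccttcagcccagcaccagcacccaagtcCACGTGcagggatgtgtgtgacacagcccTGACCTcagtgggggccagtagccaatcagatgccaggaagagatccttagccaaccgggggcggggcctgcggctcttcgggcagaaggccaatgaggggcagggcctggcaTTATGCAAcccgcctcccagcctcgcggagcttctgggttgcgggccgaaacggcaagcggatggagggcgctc
Per1, downstream start, chr11:69099902-69100201, plus strand: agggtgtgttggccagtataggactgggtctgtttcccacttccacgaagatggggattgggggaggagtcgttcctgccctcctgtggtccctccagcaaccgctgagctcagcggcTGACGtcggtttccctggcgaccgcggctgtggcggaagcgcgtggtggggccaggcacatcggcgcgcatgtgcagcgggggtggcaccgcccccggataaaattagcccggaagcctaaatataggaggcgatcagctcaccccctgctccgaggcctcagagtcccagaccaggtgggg
Cry1, chr10:85185005-85185304, minus strand: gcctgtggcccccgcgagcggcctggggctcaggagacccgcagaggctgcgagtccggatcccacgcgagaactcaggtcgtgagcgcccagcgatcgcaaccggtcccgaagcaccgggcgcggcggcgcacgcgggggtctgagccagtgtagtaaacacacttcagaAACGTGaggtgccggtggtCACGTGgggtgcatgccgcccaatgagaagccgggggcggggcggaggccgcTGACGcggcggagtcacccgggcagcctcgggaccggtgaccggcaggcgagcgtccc
Nr1d1, chr11:98775328-98775627, minus strand: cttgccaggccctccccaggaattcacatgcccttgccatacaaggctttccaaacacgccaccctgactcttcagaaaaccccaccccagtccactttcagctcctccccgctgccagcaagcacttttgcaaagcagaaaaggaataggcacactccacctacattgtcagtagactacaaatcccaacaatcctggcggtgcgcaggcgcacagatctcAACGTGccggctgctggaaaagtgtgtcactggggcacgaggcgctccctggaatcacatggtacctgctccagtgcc
Dbp, chr7:45704997-45705296, plus strand: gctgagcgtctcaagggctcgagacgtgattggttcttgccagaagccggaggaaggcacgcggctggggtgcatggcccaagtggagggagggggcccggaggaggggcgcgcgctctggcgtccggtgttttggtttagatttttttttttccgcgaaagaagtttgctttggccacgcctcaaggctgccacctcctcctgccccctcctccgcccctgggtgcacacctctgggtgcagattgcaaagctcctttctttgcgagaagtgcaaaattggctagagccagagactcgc

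The upstream Per1 window held an E-box at -166, a short CRE core at -246, a nuclear receptor core at -137 and a D-box at -24, counted from the annotated start. The downstream Per1 window held a short CRE core at -132 and no E-box. Cry1 held an E-box at -60, CACGTT at -79 and a short CRE core at -8, and Nr1d1 held CACGTT at -28. None of the searched letters occurred in the Dbp window. That window is set on a start at 45705247, downstream of the start of the main coding transcript Dbp-201 at 45705088. Since it begins at 45704997, most of the 250 bases before the Dbp-201 start were not searched. Of the windows not shown, Per3 held TTATGTAA at -205 and -158, and Cry2 held CACGTT at -166 and a short CRE core at -209. Arntl and Clock had several windows. The only match for each was AGGTCA, at 32 in window 2 of Arntl and at -119 in window 3 of Clock. Their other windows held none of the searched letters. Among those were the windows at the starts of the main coding transcripts Arntl-201 and Clock-205. Over all 32851 windows of this length, 7.15% held CACGTG, 4.68% CACGTT, 1.79% the full CRE, 20.8% TGACG, 0.938% TTATGTAA, 0.743% TTATGCAA, 16.3% AGGTCA and 19% TGTTCT. These matches describe letters in a window and are not measured sites.

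Per length of gene, Nr1d1 had the highest mean level over the 72 libraries, 23.8 ± 2.88 CPM per kb (SD, n = 72). Cry2 at 19.0 ± 1.07, Bhlhe40 at 18.8 ± 2.01 and Dbp at 17.3 ± 4.38 CPM per kb followed, and these neighbours lay within 1 SD of each other. Per1 stood at 13.8 ± 2.22, Clock at 7.84 ± 0.605, Per2 at 6.74 ± 0.896, Per3 at 5.18 ± 0.704, Arntl at 4.37 ± 0.706 and Cry1 at 3.12 ± 0.366 CPM per kb. Dbp varied most for its level, from 9.56 to 28.6 CPM per kb.

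The main question of the design was which genes respond within 30 min to the cue alone or to fear conditioning. Among the clock genes, Per1 was higher and Nr1d1 and Dbp were lower than in the home cage, while Per2 was higher by a smaller amount. Per1 (chr11:69095217-69109960 on GRCm38, plus strand) was the only member that rose in all 8 comparisons with the home cage, by 0.36 to 0.56 on the log2 scale. In DH labelled 6J, Per1 had 57.0, 60.3 and 66.6 CPM (lowest, median, highest) in the home cage, 81.9, 91.8 and 97.9 after the cue, and 84.3, 90.0 and 101 after shock and cue. All 12 treated libraries lay above all 6 home cage libraries, as did the CPM of 1.88% of all genes after the cue and 1.38% after shock and cue. The log2 fold change was 0.56 (SE 0.0667, adjusted p = 6.65e-07, edgeR) after the cue and 0.56 (SE 0.0667, adjusted p = 9.19e-07) after shock and cue.

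In DH labelled 6NJ, Per1 had 59.0, 61.4 and 68.3 CPM in the home cage, 62.6, 79.6 and 94.0 after the cue, and 70.3, 82.3 and 89.4 after shock and cue. The cue group overlapped the home cage through 1 library, 38A at 62.6 CPM, and the shock and cue group did not overlap (wholly higher for 1.87% of all genes). The log2 fold changes were 0.36 (SE 0.0666, adjusted p = 0.00113) and 0.38 (SE 0.0665, adjusted p = 0.000365). In VH labelled 6J the 3 groups had 55.1, 63.7 and 69.7 CPM, 80.5, 85.3 and 88.2, and 74.7, 81.0 and 90.1, with log2 fold changes of 0.43 (adjusted p = 1.87e-06) and 0.36 (adjusted p = 5.21e-05). Neither treated group overlapped the home cage, as was so for 2.94% and 1.42% of all genes in the same direction. In VH labelled 6NJ they had 59.7, 64.3 and 69.4 CPM, 79.8, 83.7 and 103, and 81.8, 84.2 and 92.8, again with no overlap (2.24% and 2.12% of all genes), and log2 fold changes of 0.44 (adjusted p = 6.16e-07) and 0.41 (adjusted p = 3.89e-06). The rise passed the threshold under each of the 7 alternatives in each of the 8 comparisons, with the highest adjusted p at 0.0427, for the DH 6NJ cue comparison on counts summed per code number.

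**Figure D1:**
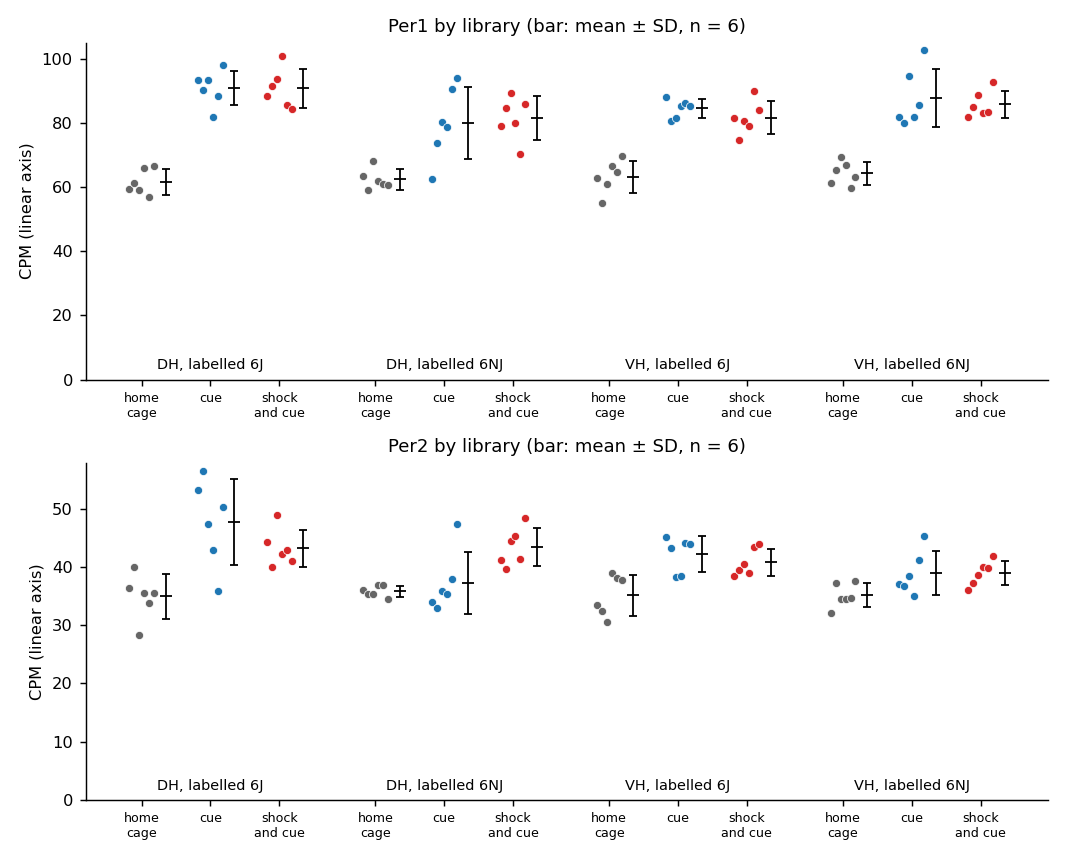
CPM of Per1 (top) and Per2 (bottom) in each of the 72 libraries, by region, strain label and condition, with the mean and SD of each group of 6. Per1 libraries after the cue or shock and cue lie above the home cage libraries in every group pair except for library 38A in DH labelled 6NJ, whereas Per2 groups overlap in most pairs.

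Per2 (chr1:91415982-91459324, minus strand), whose protein also binds the cryptochromes, had 28.4, 35.6 and 40.0 CPM in the DH 6J home cage group, 35.9, 48.9 and 56.5 after the cue and 40.0, 42.6 and 49.0 after shock and cue. The cue group overlapped the home cage, and the lowest shock and cue library was just below the highest home cage library. Per2 rose there by 0.44 on the log2 scale (SE 0.0838, adjusted p = 0.000857) after the cue and by 0.31 (adjusted p = 0.0474) after shock and cue, and in VH labelled 6J by 0.27 (adjusted p = 0.00287) and 0.21 (adjusted p = 0.0432). Leaving out the codes high in Lcn2, the cue comparisons labelled 6J gave 0.31 (adjusted p = 0.468) in DH and 0.18 (adjusted p = 0.452) in VH, and their part in the result was not tested beyond this. For the shock and cue comparisons labelled 6J, the values without these codes were 0.37 (adjusted p = 0.0244) in DH and 0.17 (adjusted p = 0.199) in VH. On counts summed per code number, those comparisons had adjusted p = 0.178 in DH and 0.176 in VH.

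In DH labelled 6NJ, Per2 had 34.4, 35.6 and 36.9 CPM in the home cage, 32.9, 35.6 and 47.5 after the cue, and 39.6, 42.9 and 48.4 after shock and cue. The cue median equalled that of the home cage to the tenth. The shock and cue group lay wholly above the home cage group, as for 1.87% of all genes. The log2 fold changes were 0.06 (adjusted p = 0.824) and 0.28 (adjusted p = 0.0552), and in VH labelled 6NJ 0.15 (adjusted p = 0.10) and 0.14 (adjusted p = 0.132). As the mean of both strain labels Per2 rose in all 4 comparisons, by 0.25 and 0.29 in DH (adjusted p = 0.00385 and 0.00112) and by 0.21 and 0.18 in VH (adjusted p = 0.000351 and 0.00345). Of these, the DH cue value was 0.18 with adjusted p = 0.156 without the codes high in Lcn2. Per3 (chr4:151003652-151044665, minus strand), the third paralog, passed no comparison of conditions, with log2 fold changes from -0.18 to 0.21 within strain labels and groups that overlapped throughout.

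The cryptochromes, the partners of the PER proteins in repression, gave small values. Cry1 (chr10:85131700-85185064, minus strand) had 8.74, 9.35 and 10.2 CPM in the DH 6J home cage group and 10.3, 11.4 and 13.5 after the cue. The groups did not overlap (wholly higher for 1.88% of all genes), and Cry1 rose by 0.30 on the log2 scale (SE 0.0699, adjusted p = 0.00714). With the codes high in Lcn2 left out the value was 0.37 (adjusted p = 0.210). As the mean of both labels Cry1 rose in DH by 0.20 after the cue (adjusted p = 0.00594) and by 0.19 after shock and cue (adjusted p = 0.00926). The VH values were 0.08 (adjusted p = 0.251) and 0.04 (adjusted p = 0.633). The difference between regions in these responses did not pass (0.12, adjusted p = 0.801, and 0.14, adjusted p = 0.483). Cry2 (chr2:92403646-92434043, minus strand) fell by 0.15 in VH labelled 6NJ after shock and cue (adjusted p = 0.0133), from 123, 130 and 135 CPM to 110, 116 and 126. The groups overlapped slightly, and on counts summed per code number the adjusted p was 0.0997. The mean of both labels was -0.09 in VH (adjusted p = 0.0209, and 0.121 on summed counts).

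The repressor of Arntl and the output factor were lower than in the home cage. Nr1d1 (chr11:98767932-98775333, minus strand) had 77.4, 81.9 and 88.0 CPM in the DH 6NJ home cage group, 53.4, 67.6 and 80.5 after the cue and 55.2, 61.0 and 73.1 after shock and cue. The shock and cue libraries all lay below the home cage libraries, as for 1.05% of all genes, and the cue libraries overlapped them. Nr1d1 fell by 0.30 (SE 0.0839, adjusted p = 0.0496) and by 0.39 (SE 0.0840, adjusted p = 0.00535) on the log2 scale. In DH labelled 6J it had 73.5, 77.9 and 85.2 CPM, 59.6, 70.9 and 76.8, and 58.6, 64.6 and 82.6, and the differences of -0.17 (adjusted p = 0.235) and -0.23 (adjusted p = 0.169) did not pass.

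In VH labelled 6J, Nr1d1 had 78.4, 83.6 and 89.4 CPM in the home cage, 67.0, 71.4 and 79.5 after the cue and 64.2, 69.4 and 75.1 after shock and cue, with log2 fold changes of -0.20 (adjusted p = 0.0191) and -0.27 (adjusted p = 0.00842). In VH labelled 6NJ it had 74.5, 83.0 and 86.6 CPM, 64.2, 72 and 85.1, and 62.0, 71.4 and 76.5, with log2 fold changes of -0.18 (adjusted p = 0.0328) and -0.24 (adjusted p = 0.00897). The shock and cue group lay wholly below the home cage in the libraries labelled 6J (0.699% of all genes) and overlapped it in those labelled 6NJ. As the mean of both labels Nr1d1 fell by 0.23 and 0.31 in DH (adjusted p = 0.00720 and 0.000649) and by 0.19 and 0.25 in VH (adjusted p = 0.000548 and 4.81e-05). Without the codes high in Lcn2, the DH cue value was -0.26 (adjusted p = 0.105), that labelled 6NJ -0.30 (adjusted p = 0.0822) and that labelled 6J in VH -0.23 (adjusted p = 0.351).

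Dbp (chr7:45705088-45710203, plus strand) had the largest of the members' differences in the means of both labels. In DH labelled 6NJ it had 62.1, 64.5 and 68.5 CPM in the home cage, 32.6, 44.4 and 53.8 after the cue and 28.6, 43.0 and 49.7 after shock and cue. Neither treated group overlapped the home cage (wholly lower for 0.55% and 1.05% of all genes), and Dbp fell by 0.60 (SE 0.154, adjusted p = 0.0303) and 0.64 (SE 0.154, adjusted p = 0.0148) on the log2 scale. In VH labelled 6NJ it had 61.0, 65.4 and 78.4 CPM, 32.6, 42.3 and 60.3, and 32.4, 40.5 and 51.7, again with no overlap (1.06% and 1.22% of all genes), and fell by 0.62 (SE 0.143, adjusted p = 0.00528) and 0.71 (SE 0.143, adjusted p = 0.00241). The home cage libraries labelled 6J were spread more widely, at 38.6, 61.5 and 80.8 CPM in DH and 44.8, 66.1 and 85.5 in VH, and overlapped the treated groups. Against them Dbp fell in VH by 0.47 (adjusted p = 0.0280) and 0.54 (adjusted p = 0.0307), and the DH values of -0.39 (adjusted p = 0.130) and -0.40 (adjusted p = 0.200) did not pass. The means of both labels were -0.49 and -0.52 in DH (adjusted p = 0.00241 and 0.00184) and -0.55 and -0.63 in VH (adjusted p = 0.000161 and 6.38e-05). The VH cue value labelled 6J without the codes high in Lcn2 was -0.54 (adjusted p = 0.340), and all 4 means passed.

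**Figure D2:**
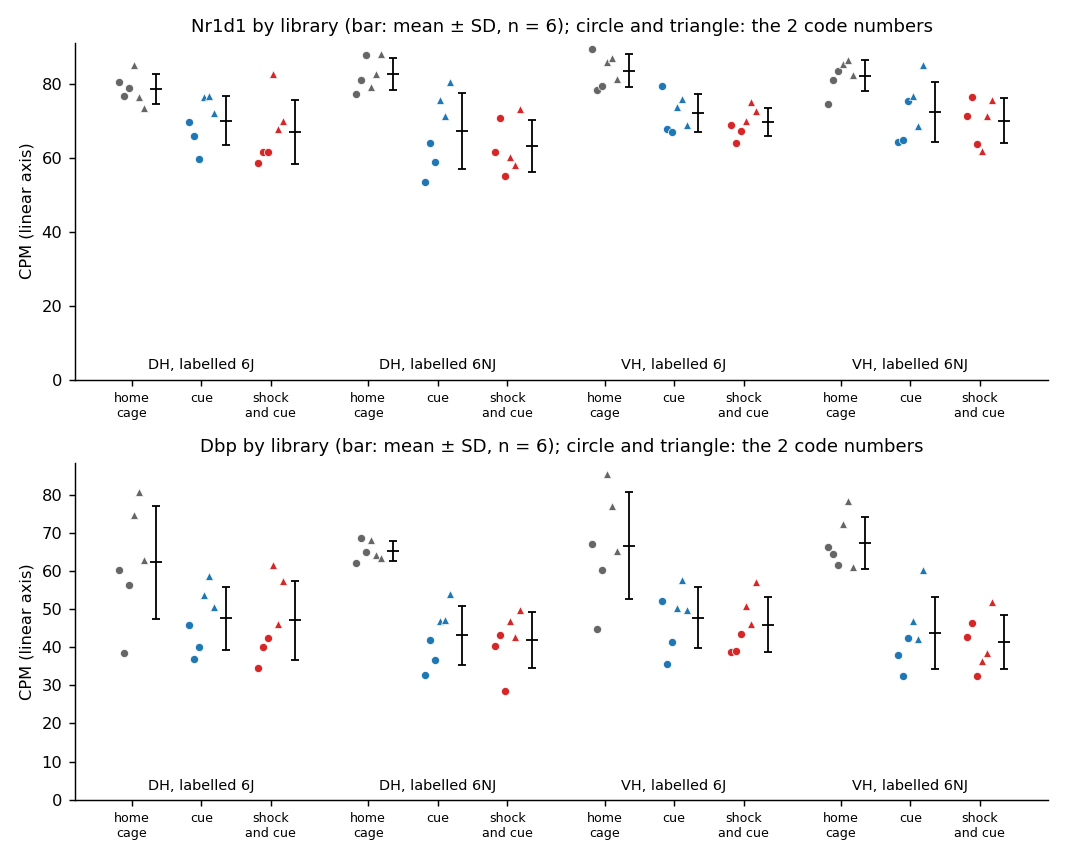
CPM of Nr1d1 (top) and Dbp (bottom) in each of the 72 libraries, with the mean and SD of each group of 6; circles and triangles are the 2 code numbers of a group. Dbp is lower after the cue and after shock and cue in the groups labelled 6NJ with no overlap, and in 4 of the 6 DH groups every Dbp triangle lies above every circle.

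Dbp and Nr1d1 were also compared between the code numbers within a group, and neither passed after adjustment. In DH, Dbp had a mean of 39.0 CPM in number 31 and 55.0 in number 33 (labelled 6J, shock and cue), 41.0 in 32 and 54.3 in 34 (6J, cue), 51.7 in 35 and 72.8 in 36 (6J, home cage), 37.4 in 37 and 46.4 in 39 (6NJ, shock and cue), 37.0 in 38 and 49.3 in 40 (6NJ, cue), and 65.2 in both 41 and 42 (6NJ, home cage), with n = 3 each. The higher number had the higher mean in 5 of the 6 groups. In edgeR's quasi-likelihood test of the 6 differences together, Dbp had an adjusted p of 0.938 in DH and 0.916 in VH (9.57e-05 and 0.0104 before adjustment over all genes). Nr1d1 had an adjusted p of 0.938 in DH and 0.989 in VH (0.000644 and 0.218 before adjustment). Of 19647 genes in DH and 19597 in VH, 0 passed this test (0% each), with 781 and 1024 at an unadjusted p under 0.05, among them 5 of the 10 members in DH and 2 in VH. On counts summed per number, which leaves 2 sums a group, the Dbp means of both labels were -0.49 and -0.52 in DH (adjusted p = 0.190 and 0.207) and -0.52 and -0.61 in VH (adjusted p = 0.0549 and 0.0468). Nr1d1 had adjusted p = 0.193 and 0.130 in DH and 0.00424 and 0.00180 in VH. What the numbers stand for is not given in the labels, and their part in the result was not tested beyond this.

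The activators and the E-box competitor differed by less. Clock (chr5:76209868-76304792, minus strand) had 94.4, 97.7 and 106 CPM in the VH 6J home cage group and 108, 111 and 114 after the cue. These groups did not overlap (wholly higher for 2.94% of all genes), and Clock rose by 0.18 (SE 0.0496, adjusted p = 0.0138). The mean of both labels was 0.16 in VH after the cue (adjusted p = 0.000676), and Arntl (chr7:113207465-113314126, plus strand) rose there by 0.12 (adjusted p = 0.0411), a call lost in 3 of 7 alternatives. Bhlhe40 (chr6:108660629-108666925, plus strand) had 68.4, 79.0 and 99.7 CPM in the DH 6J home cage group and 89.5, 102 and 110 after the cue. The groups overlapped, and Bhlhe40 rose by 0.31 (adjusted p = 0.0146), and in VH labelled 6J by 0.24 (adjusted p = 0.0122). The values labelled 6J after the cue, without the codes high in Lcn2, were 0.17 for Clock in VH (adjusted p = 0.406) and 0.41 and 0.33 for Bhlhe40 in DH and VH (adjusted p = 0.134 and 0.0853).

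**Figure D3:**
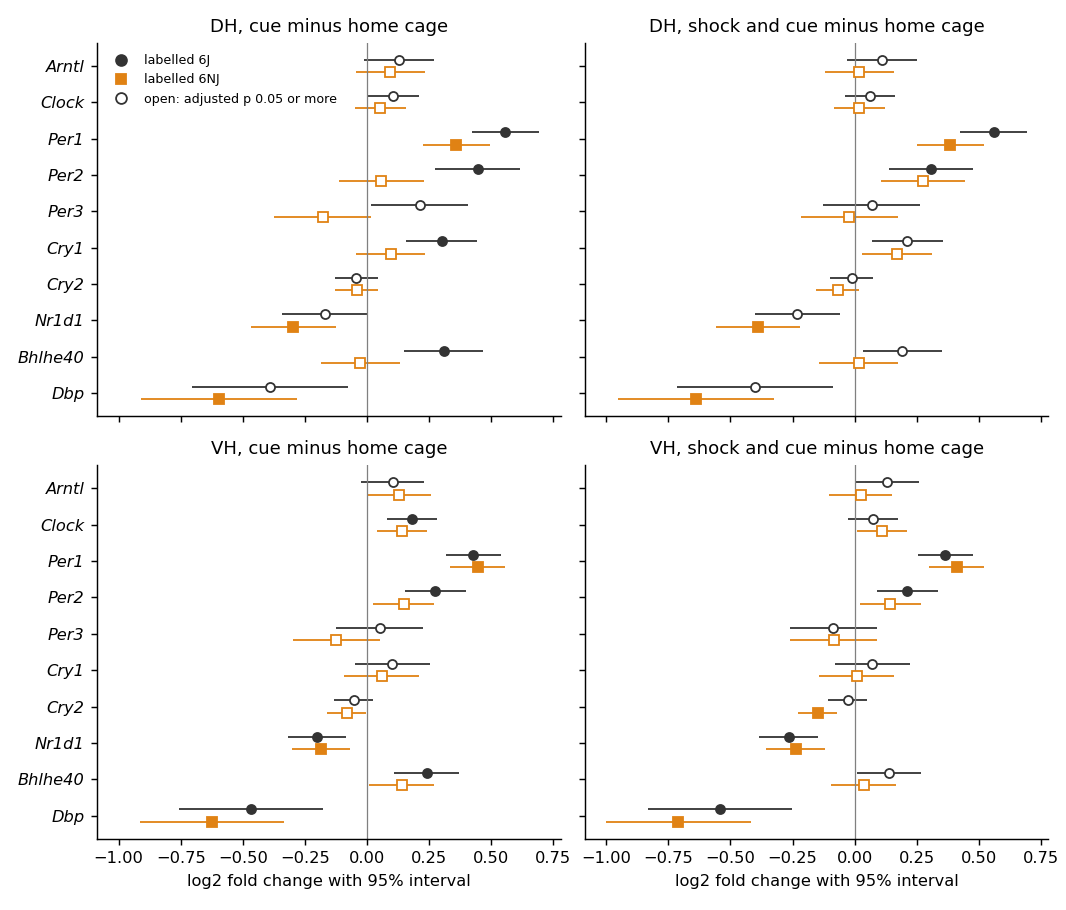
Log2 fold change with its 95% interval for each of the 10 genes against the home cage, by region (rows), condition (columns) and strain label (marker); filled markers passed an adjusted p of 0.05 in edgeR. Per1 lies right of 0 and filled in all 8 positions, and Dbp and Nr1d1 lie left of 0 in all 8.

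Counted over the members, 4 of 10 were higher and 0 lower after the cue in DH labelled 6J, where 3.81% of all genes were higher and 2.08% lower. In DH labelled 6NJ, 1 was higher and 2 were lower after the cue (1.75% and 0.606% of all genes). After shock and cue in DH, 2 were higher and 0 lower in the libraries labelled 6J (1.28% and 0.473%), and 1 was higher and 2 lower in those labelled 6NJ (2.3% and 1.27%). In VH after the cue, 4 were higher and 2 lower labelled 6J (7.78% and 5.07%), and 1 was higher and 2 lower labelled 6NJ (6.97% and 5.89%). In VH after shock and cue, 2 were higher and 2 lower labelled 6J (1.84% and 1.27%), and 1 was higher and 3 lower labelled 6NJ (4.56% and 4.1%). The VH shares among all genes were larger after the cue than those in DH, and the members' counts there stand against that background. As the mean of both labels, 5 members passed in DH after the cue against 13% of all genes, 5 in DH after shock and cue against 10%, 7 in VH after the cue against 31.5% and 5 in VH after shock and cue against 20.7%. In these means the 10 genes had a median absolute log2 fold change of 0.17 in DH and 0.18 in VH after the cue, and of 0.15 and 0.09 after shock and cue, against 0.08, 0.11, 0.07 and 0.09 over all genes tested.

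No difference between the 2 treatments was detected among these genes. Between shock and cue and cue alone, 0 of 10 members passed in edgeR in either region or label, as the share of all genes passing was 0%, and DESeq2 also called 0 members. At an unadjusted p under 0.05 there were 0, 1, 1 and 0 members in DH 6J, DH 6NJ, VH 6J and VH 6NJ. Over all genes, 1896 and 1399 of 19647 in DH and 1465 and 1218 of 19597 in VH had such a p. For Per1 the difference as the mean of both labels was 0.01 in DH and -0.05 in VH (SE 0.0467 and 0.0383), and for Dbp -0.03 and -0.08 (SE 0.109 and 0.101). The one member at an unadjusted p under 0.05 in DH labelled 6NJ was Per2, at 0.22 (adjusted p = 0.696).

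Transcript estimates resolved some of these genes further. Of 44 annotated transcripts of the 10 genes, 26 had a mean of at least 1 CPM in either region. As the mean of both labels, 4 of these were higher and 3 lower in DH after the cue (3.59% of all transcripts passed), and 3 and 3 after shock and cue (2.79%). In VH, 6 were higher and 7 lower after the cue (13.4%), and 1 and 4 after shock and cue (4.12%). The shares are over all transcripts past the filter on low counts. Those were not held to 1 CPM, so the sets differ in level. Dbp-205, an annotated transcript that keeps an intron, had 5.47, 7.13 and 10.4 CPM in the DH home cage (12 libraries of both labels), 1.69, 3.30 and 5.45 after the cue and 1.48, 3.11 and 6.53 after shock and cue. In VH it had 5.01, 7.20 and 8.91 CPM, 1.80, 3.18 and 4.32, and 2.35, 3.31 and 4.21. Only the DH shock and cue group overlapped the home cage. Among all transcripts tested, 0.0124% lay wholly below the home cage after each treatment in DH, and 0.0466% after the cue and 0.0269% after shock and cue in VH. Dbp-205 fell by 1.12 and 1.07 on the log2 scale in DH (adjusted p = 7.76e-05 and 0.000186) and by 1.22 and 1.12 in VH (adjusted p = 8.43e-10 and 7.52e-09).

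The main coding transcript Dbp-201 fell by 0.50 and 0.55 in DH (adjusted p = 0.0189 and 0.0115) and by 0.48 and 0.63 in VH (adjusted p = 0.00405 and 0.000723). Of the sum of both transcripts, Dbp-205 was 18 ± 2.97% (SD, n = 12) in the DH home cage, 12.2 ± 2.22% after the cue and 12.8 ± 2.64% after shock and cue, and 17.0 ± 2.72%, 10.9 ± 1.73% and 12.8 ± 1.96% in VH. This share was chosen after the values were seen and carries no test. On counts summed per code number Dbp-205 kept its call in VH (adjusted p = 0.00515 and 0.0142) and lost it in DH (0.0936 and 0.116), and Dbp-201 lost it in both regions (0.0658 to 0.325). Without the codes high in Lcn2, Dbp-205 kept all 4 calls and Dbp-201 lost those after the cue (adjusted p = 0.108 in DH and 0.0604 in VH).

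**Figure D4:**
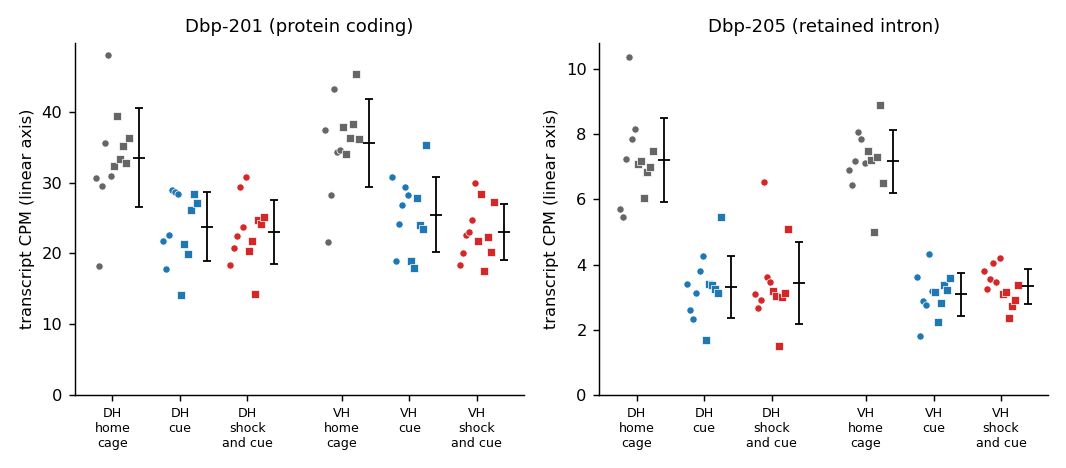
Transcript CPM of Dbp-201 (left) and Dbp-205 (right) in each library by region and condition, with circles for the label 6J, squares for 6NJ, and the mean and SD of 12 libraries. For Dbp-205 the home cage libraries of VH lie at 5.01 to 8.91 CPM, above all VH libraries of both other conditions.

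The coding transcripts of Per1 differ in their start, and single-end reads divide them with wide error. Per1-201, whose start lies in the upstream window printed above, had 7.39, 18.5 and 35.1 CPM in the DH home cage, 15.2, 33.5 and 54.4 after the cue and 26.1, 34.7 and 66.1 after shock and cue. The groups overlapped, and it rose by 0.76 (SE 0.220, adjusted p = 0.0468) and 0.88 (SE 0.220, adjusted p = 0.0220). Per1-206, whose start lies in the downstream window, had log2 fold changes of 0.41 after the cue in DH (adjusted p = 0.439) and 0.16 in VH, and a difference between the 2 transcripts was not tested. Without the codes high in Lcn2, Per1-201 had 1.12 after the cue in DH (adjusted p = 0.0238). On summed counts, Per1-201 had adjusted p = 0.115 and 0.10. In VH its levels were 0.274, 17.3 and 34.7 CPM in the home cage, 11.4, 37.0 and 52.5 after the cue and 15.9, 33.2 and 47.8 after shock and cue. Both treated groups overlapped the home cage there. Per1-202, another coding transcript, starts at 69095217, before both windows. It had means of 7.06, 9.35 and 8.27 CPM in DH (home cage, cue, shock and cue) and 6.13, 8.76 and 7.86 in VH (SD 1.18 to 1.51, n = 12). The levels of Per1-202, the VH levels of Per1-201 and the VH value of Per1-206 are given without a test.

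A wider list of clock genes was examined beside the members. Of 22 further genes (activators, the accessory loop, the PAR bZIP factors and their opponent, E-box repressors, and enzymes of PER and CRY stability), 1 or 2 were higher and 0 lower in each DH comparison within a strain label, where 1.28% to 3.81% of all genes were higher and 0.473% to 2.08% lower. In VH after the cue, 4 were higher and 1 lower labelled 6J (7.78% and 5.07% of all genes) and 2 and 1 labelled 6NJ (6.97% and 5.89%). In VH after shock and cue, 1 was higher and 0 lower labelled 6J (1.84% and 1.27%) and 1 and 1 labelled 6NJ (4.56% and 4.1%). Nfil3, the repressor that opposes DBP at D-boxes, rose in all 8 comparisons. It had 6.27 to 7.54 CPM in the DH 6J home cage group and 8.41 to 13.1 after the cue, with no overlap (wholly higher for 1.88% of all genes). Its log2 fold changes were 0.48 to 0.60. Both of the groups shown hold codes high in Lcn2, and values without those codes are not given for Nfil3. Usp2, a ubiquitin protease driven by the clock, fell as the mean of both labels in all 4 comparisons, by 0.21 and 0.25 in DH and 0.23 and 0.27 in VH (adjusted p at most 0.0174). Bhlhe41 (DEC2), the paralog of Bhlhe40, fell in VH by 0.18 and 0.19 (adjusted p = 0.00779 and 0.00895). Bhlhe40 itself had log2 fold changes of 0.19 and 0.09 there.

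Genes induced by neuronal activity were higher beside Per1, as were some of those induced by glucocorticoids. Of 8 activity genes (Fos, Arc, Egr1, Junb, Nr4a1, Sik1, Dusp1, Crem), 7 or 8 rose and 0 fell in each of the 8 comparisons within labels, with medians of 0.81 to 1.08 on the log2 scale. Of 10 glucocorticoid genes 4 or 5 rose, 0 fell and the rest did not pass, with medians of 0.09 to 0.54, where 1.28% to 7.78% of all genes rose. All gene lists used here were chosen with earlier results of these data known, so their counts are descriptions and no independent support. Across the libraries of a region, the genes whose log2 CPM was most like Per1 among 19269 were Nr4a1 (r = 0.91 in DH and 0.92 in VH), Arc and Junb, all on the activity list above. For Nr1d1 the nearest was Dbp (r = 0.85 and 0.88), followed by Colgalt1 and B4galnt4, and for Dbp it was Nr1d1, followed by Cirbp and Rps6ka4. For Clock the nearest were Fgd4, Myo9a and Rictor, for Cry2 Kcnj4, Zdhhc8 and Coro1a, for Per3 Anks3, Zgpat and Myo9b, for Per2 Per1, Zkscan3 and Ccdc137, for Arntl Pdpk1, Tcf4 and Gm6705, and for Bhlhe40 Top1, Dusp6 and Upf2. These are descriptions over 36 libraries that share conditions. In VH after the cue, 3 of 4 microglial markers were higher, with a summed level of 98.6 to 165 CPM in the home cage and 126 to 219 after the cue, and 2 of 3 astrocyte markers were higher (350 to 443 and 376 to 489 CPM). In DH after the cue 1 of 4 oligodendrocyte markers was lower, and in VH 1 of 4 neuronal markers was lower after the cue and 2 after shock and cue. The summed levels cover the 12 libraries of both labels. As the mean of both labels, 31.5% of all genes passed in VH after the cue, 20.7% in VH after shock and cue and 13% in DH after the cue. In bulk tissue, fewer cells of a type and less RNA per cell cannot be told apart, and the part of these markers in the VH values was not tested.

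A second question was whether the substrains differ. Strain labels differed little in these genes. In the home cage 0 of 10 members passed in either region (0.931% of all genes in DH and 1.35% in VH), and 0 by DESeq2. There were 2 and 1 members at an unadjusted p under 0.05, against 2224 of 19647 genes in DH and 2433 of 19597 in VH. After the cue in DH, 1 member passed against 2.72% of all genes: Per2 was lower in the libraries labelled 6NJ by 0.35 on the log2 scale (SE 0.0834, adjusted p = 0.0149), at 32.9 to 47.5 CPM against 35.9 to 56.5, and the groups overlapped. With the Lcn2 codes left out the value was -0.16 (adjusted p = 0.787). As the mean of conditions, 0 of 10 members passed in DH against 14.7% of all genes, and 1 by DESeq2. There, 3 members and 5554 of 19647 genes had an unadjusted p under 0.05. In VH 1 of 10 did: Cry2 was higher in those labelled 6NJ by 0.08 (adjusted p = 0.0262), with 9.92% of all genes passing, and without those codes by 0.05 (adjusted p = 0.314).

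The fitted log2 responses to the cue in DH had lower values in the libraries labelled 6NJ for Per2 (a difference of -0.39, SE 0.118), Per3 (-0.39, SE 0.136), Bhlhe40 (-0.34, SE 0.111), Cry1 (-0.21, SE 0.0984) and Per1 (-0.20, SE 0.0941). All 5 had an unadjusted p under 0.05, as did 621 of 19647 genes over all. Leaving out the codes high in Lcn2, the differences of these 5 members were -0.26, -0.09, -0.44, -0.28 and -0.18. After adjustment over all genes the value was 1.0 for each, and 0 of 10 members and 0% of all genes passed any of these interactions in DH or VH, with 0 members by DESeq2. No difference between strain labels in a response was detected.

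Between regions 6 of 10 members differed as the mean of all groups, near the 63.6% of all genes that did, and 2 of 10 in the home cage against 48.8%. Arntl had the widest gap of the members. It stood at 30.7, 37.0 and 44.3 CPM in DH and 24.6, 28.3 and 32.8 in VH (36 libraries each), and was higher in DH by 0.39 on the log2 scale as the mean of all groups (SE 0.0272, adjusted p = 1.20e-20) and by 0.40 in the home cage (adjusted p = 8.53e-11). The ranges overlapped only between 30.7 and 32.8 CPM. Per3 and Cry1 were each higher in DH by 0.17 (adjusted p = 7.32e-05 and 1.20e-06), Clock by 0.10 (adjusted p = 1.22e-05) and Bhlhe40 by 0.09 (adjusted p = 0.00619), and Nr1d1 was lower by 0.07 (adjusted p = 0.0256, and 0.0799 without the codes high in Lcn2). The median absolute difference was 0.08 for the members and 0.13 for all genes. Of the other clock genes, Npas2, the paralog of Clock, was lower in DH by 0.61, and 8 of 22 were higher and 8 lower.

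Markers moved with the region too: all 4 oligodendrocyte markers were higher in DH (median log2 difference 0.87, summed levels of 4743 to 9523 CPM against 2448 to 6251), as were all 4 of dentate granule cells (0.94), all 3 of CA3 (0.54), all 4 of microglia (0.21) and all 5 of choroid plexus (1.70). Of 3 thalamus markers 2 were higher and 1 lower in DH, with summed levels of 47.9 to 100.1 against 29.0 to 56 CPM. Of 5 interneuron markers 3 were lower in DH, as was 1 of 3 of neocortex. Neuronal markers split 3 higher to 1 lower, and those of CA1 and astrocytes 2 to 1 each. None of 3 endothelial markers passed. As the mean of all groups, 63.6% of all genes differed between regions. The part of these markers in the levels of Arntl was not tested. Choroid plexus markers passed no comparison of conditions, although their sum ran from 39.0 to 8752 CPM among the DH cue libraries. The response of a member to the cue or to shock and cue differed between regions for 0 of 10 members and 0% of all genes in edgeR, and for 0 members by DESeq2. At an unadjusted p under 0.05 there were 0 members, against 1296 of 20255 genes for the cue and 2104 for shock and cue.

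Libraries also varied within groups, and Arntl was set against each of the other 9 members. After subtraction of group means, Arntl and Dbp had r = -0.59 in DH (rho = -0.57, permutation p = 0.00052, adjusted over 18 relations 0.0027) and r = -0.67 in VH (rho = -0.57, permutation p = 0.00019, adjusted 0.00171), with n = 36 each. Without the 2 libraries farthest in Arntl, r was -0.48 and -0.53. Within code numbers r was -0.23 in DH and -0.55 in VH, so the DH relation was weaker within numbers. Leaving out the codes high in Lcn2, r was -0.54 and -0.62. Arntl and Per1 had r = -0.62 in VH (rho = -0.52, permutation p = 0.0006, adjusted 0.0027, -0.43 without the 2 farthest, -0.57 within numbers) and 0.05 in DH (adjusted p = 0.791, permutation). Arntl and Clock had r = 0.53 in VH (rho = 0.47, permutation p = 8e-05, adjusted 0.00144, 0.48 without the 2 farthest, 0.67 within numbers). Arntl and Bhlhe40 had r = 0.46 in VH (rho = 0.44, permutation p = 0.0088, adjusted 0.0317, 0.41 without the 2 farthest, 0.50 within numbers), and 0.17 without the codes high in Lcn2. The other 13 of 18 relations did not pass by Pearson's r, and 1 of them, Arntl and Nr1d1 in DH, passed by rho (-0.44, adjusted permutation p = 0.0402), with r = -0.0020 within code numbers. Without those codes Per1 and Clock had r = -0.59 and 0.62 with Arntl in VH.

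The DH and VH libraries of a code deviated together for some members. For Dbp, r was 0.81 over 36 codes (rho = 0.78, permutation p = 1e-05, the smallest that 100000 permutations give, adjusted over 10 members 1e-04), 0.76 without the 2 farthest and 0.70 within code numbers. Nr1d1 had r = 0.61 (rho = 0.58, adjusted permutation p = 0.00417), Cry2 0.61 (rho = 0.59, adjusted permutation p = 0.00185), and Arntl and Bhlhe40 0.44 each (rho = 0.43 and 0.42, adjusted permutation p = 0.0329). For these 4 genes r was 0.62, 0.60, 0.34 and 0.41 without the 2 farthest codes, and 0.51, 0.63, 0.16 and 0.43 within code numbers. Without the codes high in Lcn2, Arntl and Bhlhe40 had r = 0.24 and 0.19 and no longer passed (adjusted permutation p = 0.40 and 0.406). Per1, which had the most regular response, had r = 0.39 (adjusted permutation p = 0.0969).

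**Figure D5:**
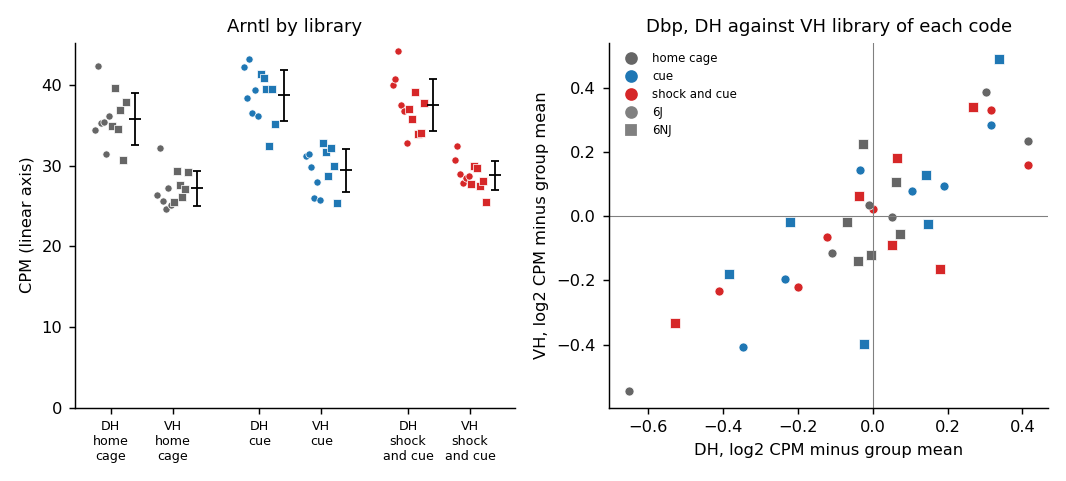
Left, CPM of Arntl in each library by condition and region, with the mean and SD of 12 libraries; right, Dbp as log2 CPM minus its group mean, the VH library of each of 36 codes against the DH library, with circles for the label 6J and squares for 6NJ. Arntl is higher in DH under each condition, and the Dbp deviations of a code run together (r = 0.81).

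Exons of 5 members overlap a gene on the other strand, and the strand setting of the counting is not given in the sources used here, so those reads cannot be told apart. Nr1d1 shares 263 of 3077 exon bases with Thra, a thyroid hormone receptor gene at a mean of 913 CPM. Thra had log2 fold changes of -0.12 and -0.11 in VH (adjusted p = 0.0118 and 0.0343) and -0.10 and -0.06 in DH (adjusted p = 0.0742 and 0.286), beside -0.19 to -0.31 for Nr1d1, and its part in the Nr1d1 values was not tested. Dbp shares 539 of 2993 exon bases with Sphk2, a sphingosine kinase gene at 29.4 CPM that passed none of these comparisons, at 0.03 to 0.06. The overlaps of Cry2, Bhlhe40 and Arntl are with genes below 1 CPM.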

How the data were processed

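Per the labels' protocols, Trizol and column-purified RNA went into stranded mRNA libraries read from a single end over 75 bp. The authors deposited gene counts (55401 genes) and estimated transcript counts (119414 transcripts) for 72 libraries. HISAT2, featureCounts, kallisto, FastQC, DESeq2 and GRCm38 are named in the submitters' processing notes, without versions or settings. The deposited counts were tested here with edgeR 4.0.16 (R 4.3.3): genes were filtered by filterByExpr, scaled by TMM and fitted by quasi-likelihood with 1 mean per group, in each region separately and in both together for regional contrasts. The deposited estimated counts went through the same fit after rounding. Adjusted p-values are Benjamini-Hochberg over all genes or transcripts tested, called under 0.05. Library totals of 30330382 to 56258370 counts put every member at 230 counts or more per library. All 10 members are named, other list genes were named where they passed several comparisons, and the 3 most alike genes were named where the smaller r of both regions was at least 0.6. Relations between libraries used group-centred log2 CPM (prior count 2) and 100000 permutations, two-sided. Alternatives were RLE size factors, no filter, fewer groups in the fit, limma 3.58.1 with a random effect for code number, DESeq2 1.42.0, leaving out codes high in Lcn2, and, added after seeing the data, counts summed per code number. The members and all lists were chosen with earlier results of these data known. The gene test was tested on simulated counts.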

Additional observations from a re-analysis of the deposited data

Results flagged for a closer look

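In 4 of the 120 sets of 6 libraries (10 genes in 12 groups), 1 library stood apart from the other 5 by more than Dixon's 95% limit for 6 values (0.625 of the range), a limit that chance passes in about 1 of 20 groups. Per2 stood at 47.5 CPM in library 40C of DH labelled 6NJ after the cue, against 32.9 to 38.0 in the others. Clock stood at 125 CPM in library 38A of the same group, against 105 to 112. In VH labelled 6J in the home cage, library 35B was apart for both activators, with Arntl at 32.2 CPM against 24.6 to 27.3 and Clock at 106 against 94.4 to 98.7. Code 35B is among the 6 codes high in Lcn2.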

How the results depend on the processing

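No value past the threshold changed sign under any alternative (some that did not pass did), and Per1 kept its call in all 8 comparisons with the home cage under all 7. Counts of members passing moved by more than 1.5 times as follows, and the cause was not tested. With RLE size factors, 1 was lower in DH 6NJ cue, 1 higher in DH 6J shock and 2 higher in VH 6NJ cue. With no filter, 0 were lower in DH 6NJ cue, 1 higher in DH 6J shock and in VH 6J shock, 1 lower in VH 6J cue, VH 6NJ cue and VH 6J shock, 0 differed by strain label in the VH mean, and 0 were lower in DH than VH. With only the groups compared, which uses fewer samples, 1 was lower in DH 6NJ cue, VH 6J cue, VH 6NJ cue and VH 6J shock, 2 were higher in DH 6NJ shock and 1 in VH 6J shock, and 0 differed by strain label in DH cue. In limma with a random effect for code number, the correlation within numbers was 1 value over all genes, -0.0357 in DH and -0.0301 in VH. It therefore made no allowance for code numbers that differ in a single gene such as Dbp. With this setting, 2 were higher in DH 6NJ shock and VH 6NJ cue, and 2 differed by strain label in DH cue and in the DH mean. DESeq2 gave 2 for the first 3 of these and 1 for the DH mean. Without the codes high in Lcn2, 1 was higher in DH 6J cue, VH 6J cue and VH 6J shock, 2 in DH 6NJ shock, 1 was lower in DH 6NJ cue and the DH cue mean, 0 lower in VH 6J cue and in DH against VH, 0 differed by strain label in DH cue or the VH mean, and 3 of 10 relations between regions passed. On counts summed per code number, which leaves 2 sums a group, 0 were lower in DH 6NJ cue, DH 6NJ shock, both DH means and VH 6NJ cue, 1 was lower in VH 6J cue, the VH cue mean, VH 6J shock and VH 6NJ shock, 1 higher in DH 6J shock and VH 6J shock, and 0 differed by strain label in DH cue or the VH mean.

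With the code as a replicate block in the comparison of regions, Per2 was higher in DH by 0.06 (adjusted p = 0.0346) and Bhlhe40 in the home cage by 0.10 (adjusted p = 0.0248), and 38 other values kept their call. The labels do not state that the codes pair libraries. Over 36 codes the correlation of DH and VH deviations ran from -0.19 to 0.34 (median 0.09), with 16 over 0.1. Each DH library was also compared with the 6 VH libraries of the same strain label and condition. Of 36 DH libraries, 17 correlated best with that of their own code, more than random matching within groups would give on average. This count was not tested. The common biological coefficient of variation was 0.111 in DH and 0.0933 in VH. At this number of libraries, differences of several standard errors could fail to pass after adjustment, as the Per2 difference between strain labels in the DH cue response did. A value that did not pass therefore does not show that a difference is absent.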
